A study of Homo sapiens with 2 samples.

Results

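The genes described are the cullins and the KLHL, KCTD and KBTBD families, the scaffolds and adaptors of a large class of ubiquitin ligases. They were chosen by symbol among probe sets annotated to a single gene, which gave 66 genes on 159 probe sets, of 19775 genes with such a probe set. Of the 66 there were 8 cullins, 34 KLHL, 16 KCTD and 8 KBTBD genes. KCTD6 and KLHL9 were already known from these arrays to be lower at 6 h when the families were picked, so their own values are a description and support nothing further. RNA came from CL1-0, an established human lung adenocarcinoma line. One group was given the FSTL1 antibody for 0 h and the other for 6 h, with 1 Affymetrix array each. Both carry the label type II alveolar cell. The protocol common to both speaks of cells stably transduced and selected with puromycin, and names no vector. FSTL1 is a glycoprotein, secreted and related to follistatin. Cells kept for 6 h without this antibody were not analysed here, so antibody, time in culture and handling cannot be told apart.

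A cullin is an elongated scaffold that holds a RING subunit with its ubiquitin-conjugating enzyme at one end and a substrate receptor at the other. CUL3 takes as receptors proteins with a BTB domain, and most KLHL and KBTBD proteins join such a domain to a Kelch propeller that binds the substrate. KCTD proteins carry a BTB-like domain and other C-terminal parts, and many, though not all, bind CUL3. The ligases are switched on when NEDD8 is attached to the cullin and off when the COP9 signalosome removes it.

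Each value is the linear intensity of a probe set, the brightness of a group of probes for a transcript. Over the 54675 probe sets the median was 45.8 (0 h) and 44.9 (6 h). Values under 45.4, the 50th percentile of both arrays pooled, were set to that floor, and a gene above it on at least 1 array counted as measured, on its brightest probe set. All differences are log2 of the 6 h value minus log2 of the 0 h value. With 1 array a group there is no spread between replicates and no test, and every difference below lacks a replicate check. How far the probe sets of 1 gene lie apart, an SD of 0.16 pooled over 6122 genes, is the nearest guide to error and is no replicate error. In these bulk samples fewer cells with a transcript and less of it per cell cannot be told apart. Of the alveolar type II markers 5 of 7 were measured, with SFTPD and LAMP3 below the floor, and the summed intensity of the 7 was 539.5 at 0 h and 601.3 at 6 h. Of 5 epithelial markers, EPCAM, CDH1 and KRT19 were below the floor on both arrays. Leukocyte markers were measured in 0 of 4 cases, endothelial in 1 of 5, fibroblast in 2 of 5, and muscle and neuron in 2 of 7. The part of other cells in the results was not tested.

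The members at the outer ends of the range were KCTD6 and KLHL9 (lower at 6 h) and KLHL28, KCTD21 and KLHL24 (higher). The 250 bases before the RefSeq start of each (GRCh38.p14) are shown so that the upstream regions of the lowest and highest members can be read side by side. They lie at chr3:58491846-58492095 (plus strand) for KCTD6, chr9:21335405-21335654 (minus strand) for KLHL9, chr14:44961486-44961735 (minus strand) for KLHL28, chr11:78188627-78188876 (minus strand) for KCTD21 and chr3:183635373-183635622 (plus strand) for KLHL24. Each is written 5′ to 3′ along the gene, and capitals mark matches to the motifs searched.
KCTD6: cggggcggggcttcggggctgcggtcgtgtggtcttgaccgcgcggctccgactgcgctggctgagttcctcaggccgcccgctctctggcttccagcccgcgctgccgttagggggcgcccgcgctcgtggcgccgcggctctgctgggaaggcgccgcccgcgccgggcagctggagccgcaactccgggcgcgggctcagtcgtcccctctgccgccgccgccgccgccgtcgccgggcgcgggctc
KLHL9: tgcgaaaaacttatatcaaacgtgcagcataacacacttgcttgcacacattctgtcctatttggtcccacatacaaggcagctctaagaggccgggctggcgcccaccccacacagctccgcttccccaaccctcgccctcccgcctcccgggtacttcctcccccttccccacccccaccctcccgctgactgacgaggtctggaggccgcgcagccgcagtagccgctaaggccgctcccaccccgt
KLHL28: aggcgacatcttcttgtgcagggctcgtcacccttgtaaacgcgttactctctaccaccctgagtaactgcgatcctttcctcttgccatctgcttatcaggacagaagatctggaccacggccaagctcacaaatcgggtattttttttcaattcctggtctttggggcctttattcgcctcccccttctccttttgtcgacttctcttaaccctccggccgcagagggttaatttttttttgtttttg
KCTD21: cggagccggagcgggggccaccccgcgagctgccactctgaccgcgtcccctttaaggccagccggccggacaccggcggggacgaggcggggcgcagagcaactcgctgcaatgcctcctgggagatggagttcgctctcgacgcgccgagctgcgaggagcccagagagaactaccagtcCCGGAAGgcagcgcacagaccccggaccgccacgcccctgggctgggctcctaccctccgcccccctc
KLHL24: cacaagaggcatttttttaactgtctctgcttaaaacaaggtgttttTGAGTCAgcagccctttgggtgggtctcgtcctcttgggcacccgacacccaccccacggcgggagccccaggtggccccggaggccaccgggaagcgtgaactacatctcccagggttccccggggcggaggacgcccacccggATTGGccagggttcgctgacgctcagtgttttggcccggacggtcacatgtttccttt

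The motifs, chosen after the values were seen and searched on both strands, were the cyclic AMP response element TGACGTCA, AP-1 TGANTCA, the E-box CACGTG, FOXO TGTTTAC, the heat shock element GAANNTTC, ETS CCGGAAG and the CCAAT box. None of the matches shown overlap. The window of KLHL24 holds an AP-1 match that begins 203 bases before the start and a CCAAT match that begins 58 bases before it. The window of KCTD21 holds an ETS match 68 bases before the start, while those of KCTD6, KLHL9 and KLHL28 hold none of these letters. Of 52 measured members 41 had a window in the table. These 41 had 65 windows and the 27305 genes of the background 35116, so the members had more windows a gene. The background also holds genes not measured here, so the shares are not like for like and no enrichment is read from them. At least 1 window held the ETS letters for 9 of the 41 (22%), against 10.2% of 27305 genes, and AP-1 for 5 (12.2%, against 8.06%). The CCAAT box was in 14 (34.1%, against 37.0%), the E-box in 2 (4.88%, against 7.73%) and the heat shock element in 2 (4.88%, against 7.05%). FOXO letters were in 1 (2.44%, against 3.66%), as was the cyclic AMP response element (2.44%, against 2.03%). Bases G and C made up 79.6% of the window of KCTD6, 72.8% of that of KCTD21 and 62.8% of that of KLHL9. In the windows of KLHL24 and KLHL28 the share was 60.8% and 48.4%, and the median over the members' 65 windows was 65.6%, against 58.0% over all windows. A match is a description of letters and not a binding site.

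Measured members numbered 52 of 66. The median difference was 0.08, against 0.02 over 12669 measured genes, and 33 members (63.5%) were higher at 6 h, against 54.3% of all genes. A log2 difference of at least 0.322 in size, set to lie under those of KCTD6 and KLHL9, is the limit used from here on. Past it 6 members were higher (11.5%), where the background was 6.28% of all genes. Lower past the limit were 3 members (5.77%), against a background of 3%. The limit was set under the values of KCTD6 and KLHL9, and without these 1 of 50 members (2%) was lower, so nothing is read from the lower count. At 1.5-fold 1 member was higher (background 0.750%) and 0 were lower (background 0.182%). Most members, 43 of 52 (82.7%), lay within the limit, a smaller share than the 90.7% of all genes. KCTD6 and KLHL9 are counted among those outside it. The split depends on the scaling of the arrays. After quantile normalization 3 members were higher and 4 lower, against 4.57% and 4.0% of all genes, and after a loess curve was taken off 3 were higher and 3 lower, against 5.32% and 3.39%.

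**Figure D1:**
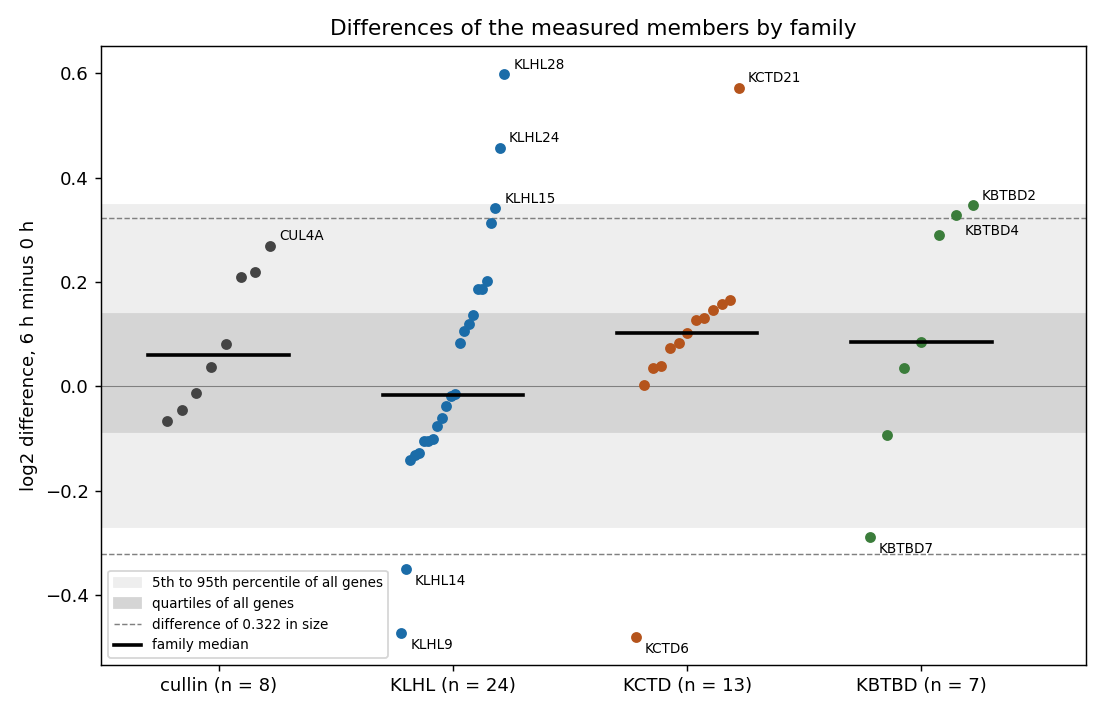
Log2 difference (6 h minus 0 h) of each measured cullin, KLHL, KCTD and KBTBD gene, 1 point a gene on its brightest probe set, with the family median as a bar and the spread of all 12669 genes in grey. KLHL28 (0.60) and KCTD21 (0.57) lie highest, KCTD6 (-0.48) and KLHL9 (-0.47) lowest, and the cullins stay between -0.07 and 0.27.

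Differences between the families were not tested, and their medians and ranges are a description. The 8 cullins, all measured, had a median of 0.06 with 5 higher and 3 lower. The 24 measured KLHL genes had a median of -0.02, 11 being higher and 13 lower, and ranged from -0.47 to 0.60. The 13 measured KCTD genes had a median of 0.10, 12 being higher and 1 lower, so on the brightest sets KCTD6 alone was below 0. With the median of each gene's sets the split was 9 higher and 4 lower, KCTD1, KCTD15 and KCTD17 being below 0 as well. The 7 measured KBTBD genes had a median of 0.08, with 5 higher and 2 lower. The sign of the KLHL median is not settled, since it was 0.03 when the 60th percentile was the floor. The SD across genes was 0.13 for cullins, 0.24 for KLHL, 0.22 for KCTD and 0.24 for KBTBD genes, against 0.19 over all genes. Without KLHL9 and KCTD6, whose values led to the choice, it was 0.22 for KLHL and 0.15 for KCTD genes.

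Of the 8 scaffolds 0 reached the limit, where 90.7% of all genes lay within it, so a count over 8 genes says little. CUL3, the scaffold of the adaptors described here, had an intensity of 3190 at 0 h and 3275 at 6 h, a difference of 0.04, and its other probe set differed by 0.14. CUL1, the scaffold of the F-box ligases, went from 1269 to 1229 (-0.05), and CUL2, which uses the elongins and VHL, from 1404 to 1391 (-0.01). A second probe set of each went the other way, at 0.22 for CUL1 and 0.24 for CUL2, so neither has a direction here. CUL4A and CUL4B, paralogs that reach their receptors through DDB1, were the highest cullins together with CUL5. CUL4A went from 1350 to 1626 (0.27), and its 4 sets ranged from -0.08 to 0.34. CUL4B went from 976.5 to 1136 (0.22), and its 4 probe sets lay close together, between 0.18 and 0.24. All 4 end in _s_at or _x_at, suffixes for probes that may match other transcripts. Both measured sets of CUL3 end in _s_at as well. Without such sets CUL3 and CUL4B were not measured, and CUL4A differed by 0.10. CUL5, which uses the SOCS-box receptors, went from 1491 to 1724 (0.21), and its 4 sets ranged from 0.04 to 0.33. The sets of CUL4B and CUL5 were thus all higher, while 1 set of CUL4A was lower. CUL7, which pairs with the F-box protein FBXW8, went from 224.5 to 214.4 (-0.07), with all 4 probe sets lower (-0.18 to -0.04). CUL9, a large relative of CUL7, was near the floor, at 62.5 and 66.2 (0.08).

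**Figure D2:**
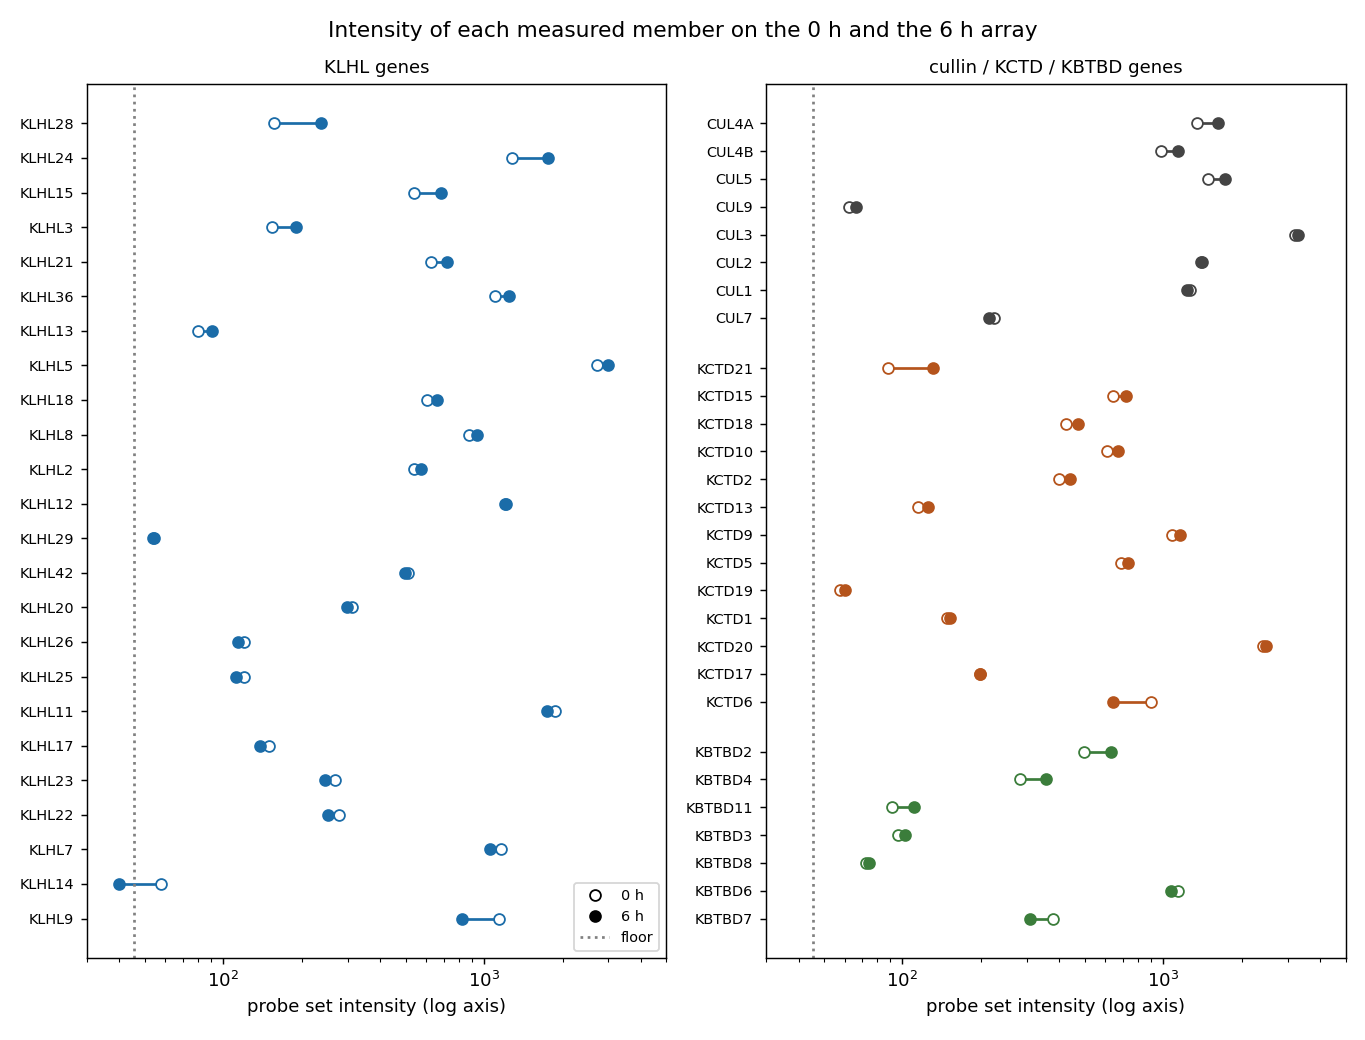
Intensity (log axis) of each measured member on its brightest probe set, open circles for 0 h and filled circles for 6 h, with the floor dotted. The circles of most genes nearly touch, while those of KLHL28, KLHL24, KCTD21, KCTD6 and KLHL9 are apart, and the 6 h value of KLHL14 (39.7) is below the floor. Levels of different genes come from different probes and cannot be set against each other.

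Among KLHL adaptors with a role in mitosis, KLHL9 had the largest difference in size. Its value led to the choice of families, so this supports nothing further. KLHL9 forms with KLHL13 and KLHL21 the group of adaptors known to act with CUL3 on Aurora B. Its intensity was 1141 at 0 h and 821.9 at 6 h, 1.39-fold lower, the 85th lowest difference of 12669 genes. Its second probe set went from 153.2 to 128.2 (-0.26), the same way but within the limit. The brightest set ends in _s_at, a suffix for probes that can match related transcripts, and without such sets KLHL9 is left with -0.26. Its close paralog KLHL13 went from 79.7 to 90.7 (0.19) and KLHL21 from 626.6 to 720.2 (0.20), each on a single probe set. Both differences are close in size to the probe set SD of 0.16. KLHL22, an adaptor for PLK1, went from 277.2 to 253.2 (-0.13), with all 4 probe sets lower (-0.32 to -0.02). KLHL42, an adaptor for the microtubule-severing protein katanin, went from 513.0 to 499.4 (-0.04), with its 3 probe sets between -0.21 and -0.04. KLHL18, which acts on Aurora A, went from 605.2 to 657.6 (0.12), while its second set differed by -0.12.

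On the brightest sets KLHL28 had the highest difference of all members and was the 1 member past 1.5-fold. Its intensity was 156.5 at 0 h and 237.0 at 6 h, 1.51-fold higher, the 92nd highest difference of all genes. It rests on a single measured probe set. KLHL28 was under 1.5-fold after centring (0.58), quantile normalization (0.55), loess (0.56) and with no floor (0.55). With the median of each gene's sets, and without _x_at and _s_at sets, 2 members were past 1.5-fold. KLHL24 was then the highest (0.79 and 0.82). KLHL24, known for the turnover of keratin 14 in skin, was higher on all 4 of its measured probe sets. Its brightest set went from 1282 to 1760 (0.46) and ends in _x_at, a suffix for probes that may match other transcripts. The other 3 sets went from 320.5 to 566.6 (0.82), from 117.5 to 199.6 (0.76) and from 69.1 to 121.9 (0.82). Each of the 4 was thus past the limit, and without _x_at and _s_at sets KLHL24 differed by 0.82. KLHL15, an adaptor for a PP2A regulatory subunit, went from 539.2 to 682.9 (0.34) on 1 probe set. Just inside 0.322 lay KLHL3, which with KLHL2 directs WNK kinases to CUL3 and so bears on salt transport. KLHL3 went from 153.5 to 190.8 (0.31) and KLHL2 from 540.1 to 572.0 (0.08).

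KLHL14 went from 57.8 at 0 h to below the floor at 6 h (39.7), and so was at least 1.27-fold lower under the assumed floor. KLHL14 was not measured when the 60th percentile was the floor. With the 40th percentile as the floor it differed by -0.54, lower than KCTD6 (-0.48) and KLHL9 (-0.47). KLHL7, linked to retinal disease, went from 1160 to 1052 (-0.14), but its 3 probe sets lay between -0.14 and 0.12 and show no common direction. KLHL12, which acts on the coat protein SEC31A and on Dishevelled, went from 1215 to 1203 (-0.01), with a second set at -0.24. KLHL20, which acts in autophagy and PML turnover, went from 310.8 to 297.9 (-0.06), with 3 sets between -0.15 and 0.15. KLHL25, an adaptor for the translation repressor 4E-BP1 and for ATP-citrate lyase, went from 120.3 to 112.2 (-0.10). The remaining KLHL genes measured, among them KLHL5, KLHL8, KLHL11, KLHL17, KLHL23, KLHL26, KLHL29 and KLHL36, lay between -0.13 (KLHL23) and 0.19 (KLHL36). KLHL5 had 5 probe sets, all higher (0.06 to 0.32). The 10 KLHL genes below the floor on both arrays have no direction here. They were KLHL1, KLHL4, KLHL6, KLHL10, KLHL31, KLHL32, KLHL34, KLHL35, KLHL40 and KLHL41, of which KLHL31, KLHL40 and KLHL41 are known from muscle and KLHL10 from testis.

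Among the KCTD genes the lowest and the highest were relatives, and the value of the lowest, KCTD6, led to the choice of families. KCTD6, KCTD11 and KCTD21 form the group known to bind HDAC1 and to restrain Hedgehog signalling through CUL3. KCTD11 had no probe set annotated to it alone, so only KCTD6 and KCTD21 of this group are seen here. KCTD6 had an intensity of 898.6 at 0 h and 644.4 at 6 h, 1.39-fold lower, the 74th lowest difference of all genes. Its second probe set went from 180.4 to 117.1 (-0.62), so both sets were lower past 0.322. KCTD21 had an intensity of 88.4 at 0 h and 131.4 at 6 h, 1.49-fold higher, the 108th highest difference of all genes. The latter rests on a single measured probe set that is within 3-fold of the floor. Over the 8 alternatives to the processing KCTD6 stayed between -0.55 and -0.47 and KCTD21 between 0.50 and 0.57. With a single measured set, KCTD21 changed only with the scaling and with no floor.

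The other KCTD genes differed less. KCTD10 and KCTD13, which with TNFAIP1 direct RhoA to CUL3, went from 606.8 to 671.8 (0.15) and from 114.4 to 125.0 (0.13). Both probe sets of each were higher (up to 0.24 for KCTD10 and 0.22 for KCTD13). KCTD2, KCTD5 and KCTD17 are close relatives, of which KCTD5 is known to act on G protein beta-gamma subunits and KCTD17 on the ciliary protein trichoplein. They went from 400.1 to 438.0 (KCTD2, 0.13), from 691.3 to 732.3 (KCTD5, 0.08) and from 197.6 to 197.8 (KCTD17, 0.002). None of these passed 0.322. KCTD1 and KCTD15, repressors of AP-2 transcription factors, had probe sets that disagreed. KCTD15 went from 640.8 to 718.3 (0.16) on its brightest set, while its other 3 sets lay at -0.07, -0.36 and -0.39. KCTD1 went from 148.2 to 152.3 (0.04), with a second set at -0.25. A direction for either is therefore not shown. KCTD18 went from 422.3 to 471.3 (0.16) with both sets higher, KCTD9 from 1081 to 1161 (0.10), KCTD20 from 2421 to 2479 (0.03, 3 sets between -0.28 and 0.16) and KCTD19 from 57.5 to 60.5 (0.07). KCTD12 and KCTD16, auxiliary subunits of the GABA-B receptor, and KCTD4 were below the floor on both arrays.

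The KBTBD genes held 2 members higher past the limit, of 7 measured (28.6%, against 6.28% of all genes). Both lay inside it after quantile normalization (KBTBD2 0.29, KBTBD4 0.27) and after loess (0.30 and 0.28). KBTBD2, an adaptor for the PI3-kinase regulatory subunit p85, went from 494.7 at 0 h to 629.4 at 6 h (0.35). Its other sets, both dimmer, went from 92.6 to 126.2 (0.45) and from 61.4 to 98.6 (0.68), so all 3 were past it. The dimmer sets end in _x_at and _s_at, suffixes for probes that may match other transcripts. KBTBD4, which acts on the CoREST corepressor, went from 282.4 to 354.6 (0.33), but its second set differed by -0.01. KBTBD6 and KBTBD7, which act together on the Rac activator TIAM1, were the 2 lower members. KBTBD7 went from 376.3 to 308.0 (-0.29, just inside the limit), with 3 sets between -0.29 and -0.11, and KBTBD6 from 1139 to 1067 (-0.09), with both sets at -0.09. They are close paralogs with 0 protein-coding genes between them in the RefSeq table, and their probes cannot be assumed to separate them. KBTBD11 went from 90.8 to 111.0 (0.29), KBTBD3 from 96.3 to 102.1 (0.08) and KBTBD8, an adaptor of the neural crest, from 72.5 to 74.3 (0.04). KBTBD12 was below the floor.

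**Figure D3:**
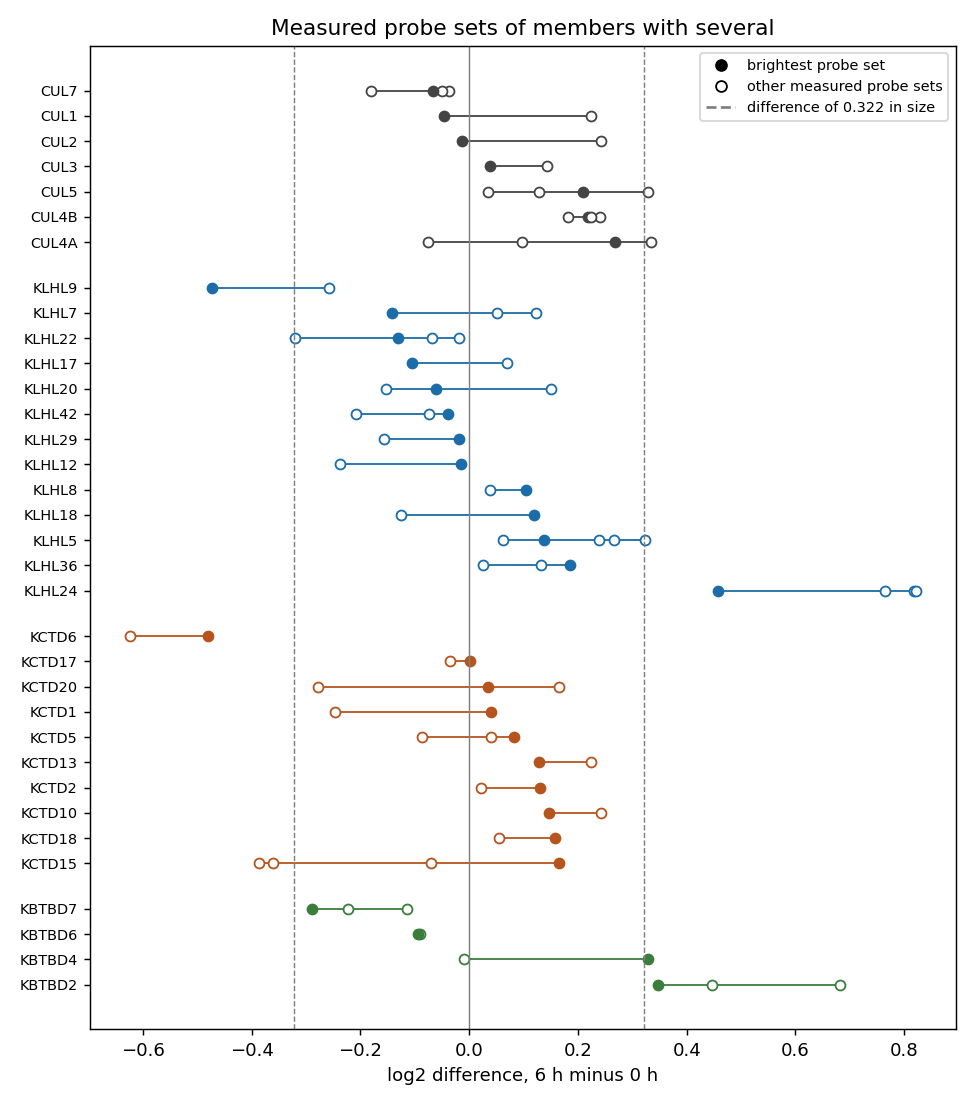
Log2 difference (6 h minus 0 h) of every measured probe set of the 34 members with several, filled for the brightest set. All sets of KLHL24, KBTBD2 and KCTD6 lie past 0.322 in size on 1 side, the 4 sets of CUL4B lie between 0.18 and 0.24, and the sets of KCTD15 reach from -0.39 to 0.16.

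Agreement among probe sets separates the members further. Of 34 members with several measured sets, all sets went the same way for 21 (61.8%), 12 higher and 9 lower, where the background over all such genes was 51.2%. KCTD6 and KLHL9, whose values led to the choice of families, are among the 21 and among the 9 lower. Nothing is therefore read from the excess over the background. By family this held for 4 of 7 cullins, 9 of 13 KLHL genes, 5 of 10 KCTD genes and 3 of 4 KBTBD genes. Of the 9 members past 0.322 in size, KCTD6, KLHL24 and KBTBD2 had every set past it, KLHL9 had both sets lower with 1 past it, and KBTBD4 had sets that disagreed. KLHL14, KLHL15, KLHL28 and KCTD21 had 1 measured set each. Counted over the 111 measured sets of members in place of genes, 14 sets (12.6%) were higher past 0.322, where the background was 6.94% of 23272 sets. Lower past it were 6 (5.41%), against a background of 3.23%, and without KCTD6 and KLHL9 they were 3 of 107 (2.80%). Sets of a gene share the array and can share probes, so they are not independent.

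The other genes of the ligase system, from lists drawn up by role, were mostly within 0.322 in size, 142 of 150 measured (94.7%), against 90.7% of all genes. Of all genes 6.28% were higher and 3% lower past it, and the counts of each list stand against these shares. In the NEDD8 pathway, which switches cullins on and off, 0 of 27 measured genes passed it in either direction, with a median of 0.003. Largest in size were the NEDD8 protease SENP8 (79.2 to 65.9, -0.26), the ligase partner ARIH1 (937.6 to 1073, 0.19) and the co-ligase DCUN1D3 (163.3 to 176.8, 0.11). Of the linkers that join the other cullins to their receptors 0 of 5 passed, with a median of -0.06, led by DDA1 (-0.18), DDB1 (-0.08) and ELOB (-0.06). Of 17 other BTB adaptors of CUL3 0 passed, with a median of 0.09. The largest differences among them were those of IVNS1ABP, a Kelch protein (972.9 to 784.9, -0.31, 3 sets all lower), TNFAIP1 (611.7 to 734.6, 0.26, with a second set at -0.24) and RHOBTB2 (0.21).

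Receptors of the other cullins past the limit were near the share of all genes, 5 of 72 higher (6.94%, against 6.28%). Of 21 F-box receptors of CUL1 16 were higher (76.2%, against 54.3% of all genes), 1 past the limit (4.76%), with a median of 0.08, led by FBXL20 (334.3 to 460.5, 0.46, 5 sets all higher), FBXO11 (0.29) and FBXO42 (0.29). Of 26 receptors of CUL2 and CUL5 18 were higher (69.2%), 3 past the limit (11.5%), with a median of 0.13, led by PCMTD1 (0.42), ASB7 (0.40, with a second set at -0.07) and SOCS7 (0.34). Of 25 receptors of CUL4 16 were higher (64%), 1 past the limit (4%), with a median of 0.09, led by PHIP (0.36), DDB2 (0.32) and DCAF12 (0.29). Across these 3 lists 0 of 72 genes were lower past the limit, against 3% of all genes, and the medians are set beside 0.02 for all genes. Of 29 described substrates and partners of the adaptors 1 was higher (3.45%, against 6.28% of all genes) and 2 were lower past the limit (6.90%, against 3%), with a median of 0.10. The first was the AP-2 factor TFAP2C (95.7 to 140.8, 0.56) and the others were the ankyrin ANK1 (64.5 to 49.5, -0.38) and trichoplein, encoded by TCHP (167.5 to 132.9, -0.33). Aurora B went from 1994 to 2137 (0.10, with a second set at -0.16) and HDAC1 from 4274 to 4660 (0.12) at the transcript level. Both were within the limit and both were chosen after their values were seen. Transcript levels do not show the amount of any ligase substrate protein.

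**Figure D4:**
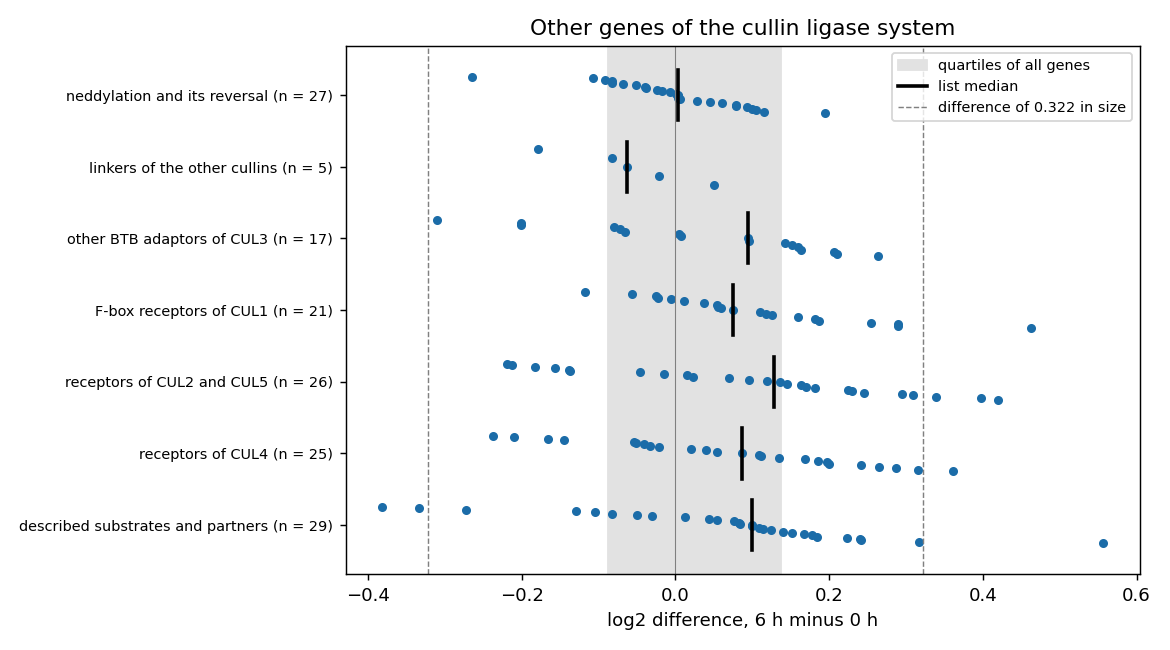
Log2 difference (6 h minus 0 h) of the measured genes in each list of the cullin ligase system, 1 point a gene on its brightest probe set, with list medians as bars and the quartiles of all genes in grey. The NEDD8 pathway has a median of 0.003 with every gene within 0.322 in size, and the receptors of CUL2 and CUL5 have the highest median, 0.13.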

How the data were processed

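Probe set intensity on a linear scale, 54675 values per array, was used as deposited by the authors. MAS5 is named per the submitters' processing notes, and its version and parameters are not given in the sources used here, nor is any scaling between the arrays. MAS5 subtracts a local background and mismatch signal, so dim values are noisy. Probe sets were named through the platform annotation, with symbols updated by Entrez identifier (41037 of 41091 single-gene sets matched the RefSeq table, all 66 members among them). Control sets were left out, as were 10 sets annotated to several genes of which at least 1 has a matching symbol. Intensities were floored at the 50th percentile, put on log2, and the gene's brightest set by mean was used (Python 3.11.15, numpy 2.4.6, pandas 2.3.3, statsmodels 0.14.6 for loess). The number of arrays, 1 a group, limits the precision. Alternatives were floors at the 40th and 60th percentile, no floor with log2(value + 16), centring, quantile and loess scaling (span 0.3), the median of a gene's sets, and leaving out _x_at and _s_at sets. Named were KCTD6, KLHL9, all cullins, members past the limit of 0.322, the 3 highest and lowest of each family, measured members of role groups and up to 3 genes per list; remaining members are named only to account for each. The members and lists were chosen with earlier results of these data known. Counts without KCTD6 and KLHL9 were added after the data were seen. The steps were tested on simulated data with bright genes, planted differences larger than the limit and noise smaller than the probe set SD. That test does not show how the steps perform near the limit or the floor.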

Additional observations from a re-analysis of the deposited data

How the results depend on the processing

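Each family median and member count was recomputed under 8 alternatives. The median of KLHL genes was -0.017 and turned to 0.034 when the floor was the 60th percentile and again to 0.034 without _x_at and _s_at sets, each with 22 genes left. The medians of KCTD, cullin, KBTBD and all members stayed above 0 under every alternative run. That of cullins was 0.15 without _x_at and _s_at sets, which leaves 6 cullins. That of all members was 0.082, and became 0.037 with no floor, 0.042 after quantile normalization and 0.057 after loess. The count of members higher by a log2 difference of at least 0.322, 6, became 3 after quantile normalization and 3 after loess. Of all genes 4.57% and 5.32% were higher there. At 1.5-fold the count higher, 1, became 0 with no floor, centring, quantile normalization or loess, against 0.40% to 0.71% of all genes. It became 2 with the median of sets and without _x_at and _s_at sets, against 0.58% and 0.79%. The count lower by at least 0.322, 3, became 5 with no floor, where all 66 members are tested and 2.07% of all genes were lower. These 5 include KCTD6 and KLHL9, and 5 members were higher with no floor, against 3.78% of all genes. Single members moved by less than the probe set SD of 0.16 in 394 of 405 recomputed values. Some values could not move, since a gene with 1 measured set well above the floor keeps its value under several alternatives. Past 0.322 in the same direction under all 8 alternatives were KCTD6, KCTD21, KLHL24 and KLHL28, and under 7 of 8 KLHL9. The limit was set under the values of KCTD6 and KLHL9, so their passing supports nothing. KCTD21 and KLHL28 kept the same value under both other floors, the median of sets and without _x_at and _s_at sets. The sign differed under at least 1 alternative for 9 of 52 members. The cause of these shifts was not tested. The median over all genes stayed between -0.01 and 0.02. Probe sets near the floor limit what can be read from members such as KLHL14, KLHL29, KCTD19, CUL9, KBTBD8, KLHL13 and KCTD21. No paired analysis was possible because each group has 1 array, and for the same reason no array could be left out.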

Other observations

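Counted over probe sets, those of members that were higher at 6 h by a log2 difference of at least 0.322 were 7 of 48 measured for KLHL genes, 4 of 13 for KBTBD genes, 2 of 23 for cullins and 1 of 27 for KCTD genes, where 6.94% of all measured sets were higher by that size. Of the 7 KLHL sets 4 were of KLHL24, and of the 4 KBTBD sets 3 were of KBTBD2. Sets of a gene are not independent, so these are not counts of members. Of the 6 sets lower by that size (background 3.23%) 3 belonged to KCTD6 and KLHL9, whose values led to the choice of families, 2 to KCTD15, whose brightest set was higher, and 1 to KLHL14. For the 34 members with several measured sets, the next brightest set had a median difference of 0.03, with 18 higher and 16 lower.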
